A study of Mus musculus with 4 samples.

Results

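Heat shock proteins and their partner chaperones were followed in 4 two-colour microarrays of dentate gyrus RNA. Members were taken by name: a feature (1 spotted sequence of the array) entered where its single gene symbol began with Hsp or Dnaj, or with Cct or Bag and a digit, and where it had a value on at least 1 array. This gave 74 features of 61 genes, of 14030 features with a value and 16281 in all. They were 25 Hsp, 36 Dnaj, 8 Cct and 5 Bag features. Another 8 matching features had no value on any array, which left Bag6, Dnajb3, Dnajb5, Dnajc30, Dnajc5b and Hspb7 without a value. One member went against the name of the group: Hspg2 encodes perlecan, a heparan sulfate proteoglycan of basement membranes and not a chaperone, and its only value was 0.42 at 1 h. A value was present on all 4 arrays for 56 member features, on 3 arrays for 7, on 2 arrays for 2 and on 1 array for 9.

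Each array set RNA of MK-801 mice (Cy5) against RNA of saline mice (Cy3) at 1 of 4 times, 1, 2, 4 and 6 h, with 1 array per time. The animals were young male C57BL/6J mice, given MK-801 at 300 µg per g body weight or saline at 5 µL per g, and the tissue was the dentate gyrus of the hippocampus. MK-801 (dizocilpine) blocks the NMDA type of glutamate receptor, and the dose is printed as the labels state it. Times were counted from a last shock of the MK-801 mice, while both RNAs were labelled as coming from control mice, so whether these animals were shocked is not settled. The labels do not say how many mice were pooled, and the dyes were not exchanged on any array.

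All values below are log ratios of the 2 channels of an array, read as log2 and centred on the median of the array. The log base and the direction of the ratio are not stated, so which of the 2 channels a positive value favours is unknown. Signs are those of the deposited table on every array, and exact 0 was read as no value. With ratios alone, no level could be compared between genes, and fewer cells of a type cannot be told apart from less RNA per cell. Features with a value numbered 12131, 12227, 10185 and 10512 at 1, 2, 4 and 6 h, of which 67, 64, 63 and 64 were members. The spread of features of 1 gene on 1 array was the only measure of precision at a single time, with a pooled SD of 0.37, 0.34, 0.57 and 0.46 at 1, 2, 4 and 6 h over 1236 to 1685 genes. The 1 h array stood apart: across 8777 features its correlation with the later arrays was -0.06 to -0.07, against 0.64 to 0.80 among the later 3, and its median absolute deviation was 0.216, against 0.141 to 0.157 on the others. Granule cell markers had values for 3 of 6 listed genes, and ratios cannot show whether their RNA was abundant.

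Chaperones keep other proteins from aggregating and help them fold. Hsp70 proteins (Hspa genes) bind unfolded stretches of a client under the control of ATP, J-domain proteins (Dnaj genes) bring clients and trigger ATP hydrolysis, and nucleotide exchange factors such as the Bag proteins release the client. The chaperonin ring built of Cct subunits folds actin and tubulin, Hsp90 completes the folding of kinases and steroid receptors, and small heat shock proteins (Hspb genes) hold unfolded clients. Protein damage in the cytosol activates heat shock factor, which binds repeats of GAA and TTC in the promoters of Hspa1a, Hspa1b, Hspb1 and others. Stress in the endoplasmic reticulum raises Hspa5 (BiP) through another promoter element. In rats, blockers of the NMDA receptor are known to induce Hsp70 in neurons of the cingulate and retrosplenial cortex.

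The promoters of 5 members whose ratios are described below are shown first, because they carry the elements through which heat shock factor and the endoplasmic reticulum stress response are known to act. Each run is the 250 bases before the annotated start of the gene, 5′ to 3′ on the strand of the gene, from RefSeq on GRCm38.p6. Capitals mark matches to GAANNTTC in Hspa1a, Hspa1b and Hspb1, to the longer heat shock element GAA, TTC, GAA with 2 bases between units (either strand) in Hspe1, and to CCAAT and CCACG with 9 bases between them in Hspa5. The windows lie at chr17:34972157-34972406 (minus strand) for Hspa1a, chr17:34959239-34959488 (minus strand) for Hspa1b, chr5:135887669-135887918 (plus strand) for Hspb1, chr1:55087898-55088147 (plus strand) for Hspe1 and chr2:34771840-34772089 (plus strand) for Hspa5.
Hspa1a: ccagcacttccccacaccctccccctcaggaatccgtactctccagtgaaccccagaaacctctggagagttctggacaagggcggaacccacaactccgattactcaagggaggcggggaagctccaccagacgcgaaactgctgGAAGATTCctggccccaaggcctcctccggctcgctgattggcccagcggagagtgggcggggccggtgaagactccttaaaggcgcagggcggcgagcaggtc
Hspa1b: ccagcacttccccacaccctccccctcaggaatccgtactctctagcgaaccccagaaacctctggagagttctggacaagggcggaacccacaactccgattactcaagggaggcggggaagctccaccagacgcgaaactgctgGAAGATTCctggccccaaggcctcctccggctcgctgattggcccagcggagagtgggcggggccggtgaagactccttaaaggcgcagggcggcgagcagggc
Hspb1: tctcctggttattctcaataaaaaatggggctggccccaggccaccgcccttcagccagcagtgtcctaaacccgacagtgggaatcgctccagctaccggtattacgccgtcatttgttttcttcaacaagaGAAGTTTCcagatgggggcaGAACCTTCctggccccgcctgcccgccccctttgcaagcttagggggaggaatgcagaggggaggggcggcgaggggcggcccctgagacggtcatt
Hspe1: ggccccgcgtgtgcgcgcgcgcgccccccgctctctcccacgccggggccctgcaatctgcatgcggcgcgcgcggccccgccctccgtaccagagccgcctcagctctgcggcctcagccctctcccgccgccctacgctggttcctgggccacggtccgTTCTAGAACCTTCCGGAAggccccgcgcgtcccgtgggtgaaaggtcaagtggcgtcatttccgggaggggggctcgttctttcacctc
Hspa5: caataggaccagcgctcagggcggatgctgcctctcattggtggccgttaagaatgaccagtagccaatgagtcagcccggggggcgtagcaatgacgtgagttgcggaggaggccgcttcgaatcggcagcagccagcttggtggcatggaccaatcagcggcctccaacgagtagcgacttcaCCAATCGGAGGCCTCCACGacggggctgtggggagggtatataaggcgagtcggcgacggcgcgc

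The Hspa1a and Hspa1b windows differed at 3 of 250 positions and were 98.8% identical, with the same match 104 bases before the start. These windows hold no bases after the start, so they do not show whether the array sequences detect both RNAs, which was not tested. The Hspb1 window held 2 matches, 117 and 97 bases before the start. Hspe1 and Hspd1 lie head to head, and 215 bases of their windows are the same DNA, so the 2 overlapping long matches in the Hspe1 window also stand in that of Hspd1. Promoter windows were found for 51 of the 61 member genes. GAANNTTC was present in 10 of these 51 genes (19.6%), against 7.73% of all 27025 genes with a window. The longer element, which contains GAANNTTC and TTCNNGAA, was present in 3 of 51, Dnajb6, Hspd1 and Hspe1, against 0.514% of all genes. TTCNNGAA was found in 7 of 51 genes (13.7%) against 8.12% of all. The endoplasmic reticulum element was present in 3 of 51, Dnajc3, Hsp90b1 and Hspa5, against 0.13% of all genes. All motifs were searched on both strands, and a match describes letters in this window, not binding.

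Hsp features with a value had medians of 0.24, 0.09, 0.06 and 0.05 at 1, 2, 4 and 6 h, and 17 of 21, 15 of 20, 14 of 19 and 10 of 19 were positive, beside 50% of all features at each time. The 1 h set held Hspa14 and Hspg2, which had a value then alone. Over the 15 Hsp features with a value on all 4 arrays the medians were 0.09, 0.10, 0.05 and -0.04, so the order of the times depends on which features are read. Bag features had a median of 0.33 at 1 h and of -0.03, -0.07 and -0.11 at 2, 4 and 6 h, with 4 of 5 positive at 1 h and 1 of 4 at each later time. Without Bag5, which had a value at 1 h alone, the other 4 had a median of 0.17 at 1 h, with 3 positive. Cct subunits had medians of 0.08, 0.19, 0.03 and 0.08, with 5 of 8, 6 of 7, 4 of 7 and 7 of 8 positive. Dnaj features stayed close to the centre of the arrays, with medians of 0.0012, 0.06, 0.07 and 0.04 and 17, 18, 22 and 21 of 33 positive. All of these medians are smaller than the SD between features of 1 gene. That SD describes single features and is not the error of a median over several. With 1 array per time the medians have no test. Over all members the medians were 0.07, 0.08, 0.06 and 0.04, against 0 for all features by construction.

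**Figure D1:**
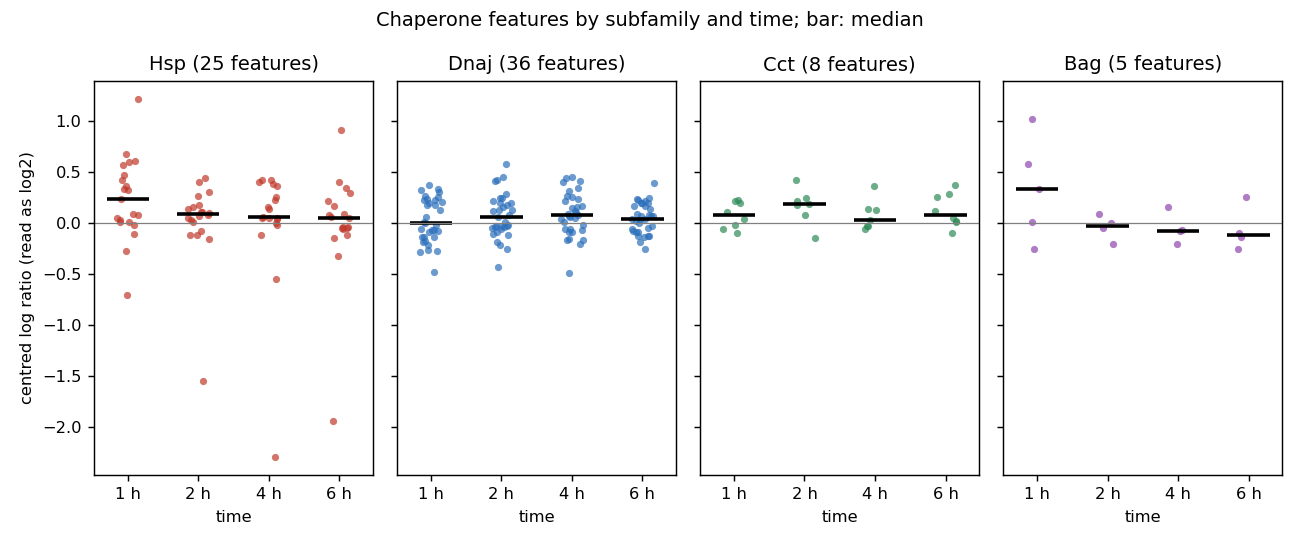
Centred log ratios (read as log2, vertical axis) of the chaperone features at 1, 2, 4 and 6 h (horizontal axis) in 4 panels for Hsp, Dnaj, Cct and Bag; each point is 1 feature and each bar the median. The Hsp and Bag medians at 1 h (0.24 and 0.33) include features with a value at 1 h alone and are 0.09 and 0.17 over features with a value on all 4 arrays. The lowest Hsp points at 2, 4 and 6 h are 1 feature of Hspa1b.

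Ratios past 0.5 were counted among members, and each count is set beside the share of all features. At 1 h, 7 of 67 member features lay at or above 0.5 (9.03% of all features) and 1 lay at or below -0.5 (6.37%). At 2 h there was 1 feature on each side of the 64 (2.48% of all features above and 3.88% below). At 4 h there were 0 above (3.85%) and 2 below (5.21%), and at 6 h 1 above (2.68%) and 1 below (4.09%). Within the subfamilies, 5 of the 7 high features at 1 h were Hsp and 2 were Bag features. Both Hspa1b features were among them, Hspa14 and Bag5 had a value at 1 h alone, and the other Bag1 feature was negative. No Dnaj or Cct feature passed 0.5 in either direction at any time except Dnaja3 at 2 h.

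In the Hsp70 family, the heat-inducible genes were positive at 1 h. Hspa1a read 0.47 at 1 h and -0.16, 0.05 and -0.12 at 2, 4 and 6 h. Hspa1b, its neighbour on the chromosome, has 2 features with the same accession, and these lay close together at 1 h alone. Feature 14566 read 0.68, 0.10, 0.13 and -0.14 at 1, 2, 4 and 6 h, close to Hspa1a. Feature 15862 read 0.61, -1.54, -2.29 and -1.93, the lowest member values at each later time. The 2 Hspa1b features thus lay 0.06 apart at 1 h and 1.64, 2.42 and 1.79 apart at the later times. The later distances are 3.87 to 4.86 times the SD between features of 1 gene at those times. This SD includes the Hspa1b pair and describes single features, and the SD of a difference between 2 features is larger.

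Features with numbers next to the low Hspa1b feature were low as well. Of the features numbered within 10 of feature 15862, 7 of 17 with a value at 2 h, 6 of 14 at 4 h and 7 of 16 at 6 h lay at or below -1, where 0.957%, 2% and 1.44% of all features did. At 1 h 0 of 14 did, against 0.412% of all features. Around the other Hspa1b feature, number 14566, the counts were 1 of 16 at 2 h, 0 of 8 at 4 h and 0 of 10 at 6 h. Whether feature numbers follow the layout of the array is not stated. The part of position in the low values of feature 15862 was not tested, and the other feature gives no such low value.

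**Figure D2:**
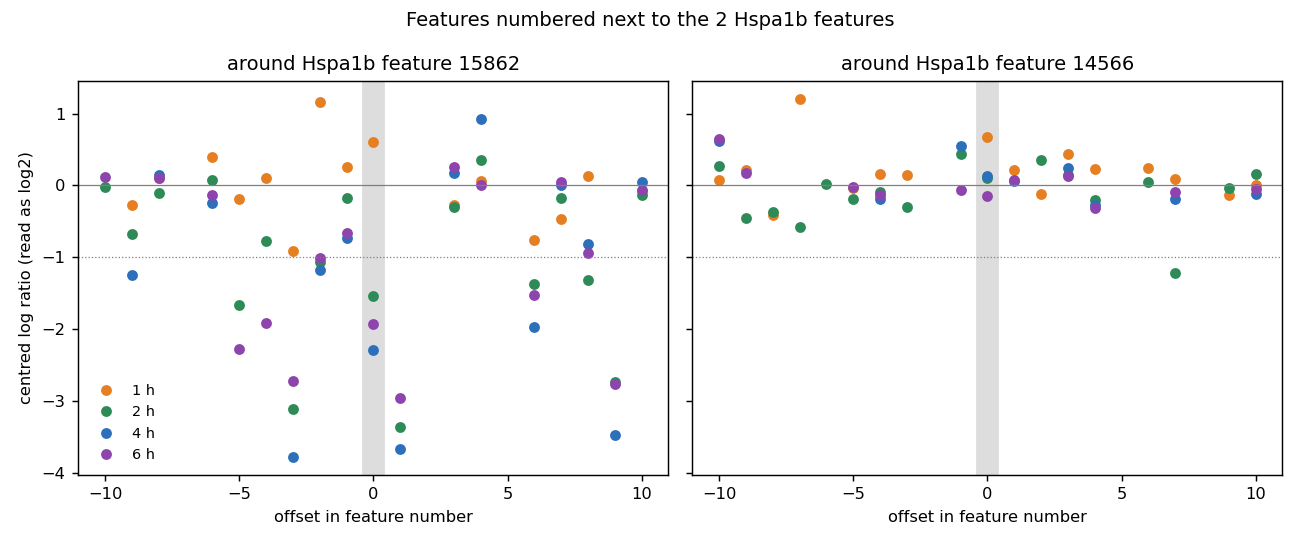
Centred log ratios (read as log2, vertical axis) of features numbered up to 10 before or after the 2 Hspa1b features (horizontal axis, offset in feature number), with feature 15862 in the left panel and 14566 in the right, coloured by time; the grey band holds the Hspa1b feature itself and the dotted line marks -1. Around feature 15862, 7 of 17 neighbours lie at or below -1 at 2 h, and around feature 14566 1 of 16 does.

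Hspa5, the Hsp70 of the endoplasmic reticulum, was positive on all 4 arrays, at 0.59, 0.18, 0.23 and 0.06 at 1, 2, 4 and 6 h. Hspa8, the constitutive Hsp70 of the cytosol, read 0.33 at 1 h, 0.42 at 4 h and 0.40 at 6 h, with no value at 2 h. These 2 genes were positive wherever they had a value, with Hspa5 highest at 1 h. Hspa9, the mitochondrial Hsp70, read -0.11, -0.12, -0.0016 and -0.03, and Hspa2, known for its role in sperm, read 0.0055, 0.16, -0.12 and -0.05. Hspa13 read 0.27, -0.54 and 0.09 at 2, 4 and 6 h, and Hspa1l read -0.27 at 1 h and 0.07 at 2 h.

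Hspa4 and Hspa4l, relatives of Hsp70 that act as nucleotide exchange factors, had their larger values late. Hspa4 read 0.05, 0.03, 0.26 and 0.34, and Hspa4l read -0.02, 0.30, 0.38 and 0.29. Hsph1 (Hsp110), of the same branch, read 0.09, 0.11, 0.16 and -0.05. Hspbp1, another exchange factor of Hsp70, read 0.03, 0.41, 0.05 and 0.08, so that its value at 2 h stood above its other 3.

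Hspa14, a ribosome-associated Hsp70, had the highest value of any member, 1.22, at 1 h, and Bag5 had the next, 1.01, also at 1 h. Neither had a value at another time, and they were the 2 of 67 members at or above 1 at 1 h (1.71% of all features). Such values were common among features measured at 1 h alone: 120 of 1065 (11.3%) lay at or above 1, with a median of 0.42, while 28 of the 8777 features with a value on all 4 arrays (0.319%) did. Both high values thus belong to a class of features with high 1 h values across the array, and the part of that class in them was not tested.

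Hsp90 features were positive wherever they had a value past 0.1. The 2 features of Hsp90aa1, the stress-inducible cytosolic Hsp90, had no value at 2 h. Feature 1021 read 0.32, 0.36 and 0.17 at 1, 4 and 6 h, and feature 12530 read 0.07, 0.42 and 0.22. Both features were highest at 4 h. Hsp90b1, the Hsp90 of the endoplasmic reticulum, read 0.01, 0.0068, 0.06 and -0.04. Hspd1 and Hspe1, which together form the Hsp60 chaperonin of mitochondria and share a promoter, were both highest at 1 h. Hspd1 read 0.36, -0.12, -0.02 and -0.06, and Hspe1 read 0.24, 0.14, 0.04 and 0.05.

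The 2 small heat shock proteins with values on all arrays ran in opposite directions. Hspb1 (Hsp25 in mice), which binds unfolded proteins and actin, read 0.57, -0.07, 0.04 and -0.32 at 1, 2, 4 and 6 h. Hspb3, a muscle-rich small heat shock protein, read -0.70, 0.11, 0.41 and 0.91, and was the lowest member at 1 h and the highest at 6 h. Hspb2, Hspb8 and Hspb9 had a value at 2 h alone, of 0.44, 0.08 and 0.05.

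Among the Bag genes, Bag3, which works with small heat shock proteins to send damaged proteins to autophagy, read 0.33, -0.20, -0.20 and -0.25 at 1, 2, 4 and 6 h. Its 3 later values lay close together, with an SD of 0.03. Bag1 had 2 features of opposite sign on every array: feature 12280 read 0.58, 0.09, 0.16 and 0.26, and feature 3222 read -0.26, -0.05, -0.08 and -0.13. No direction can therefore be given for Bag1. Bag4 read 0.01, -0.0013, -0.07 and -0.09.

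**Figure D3:**
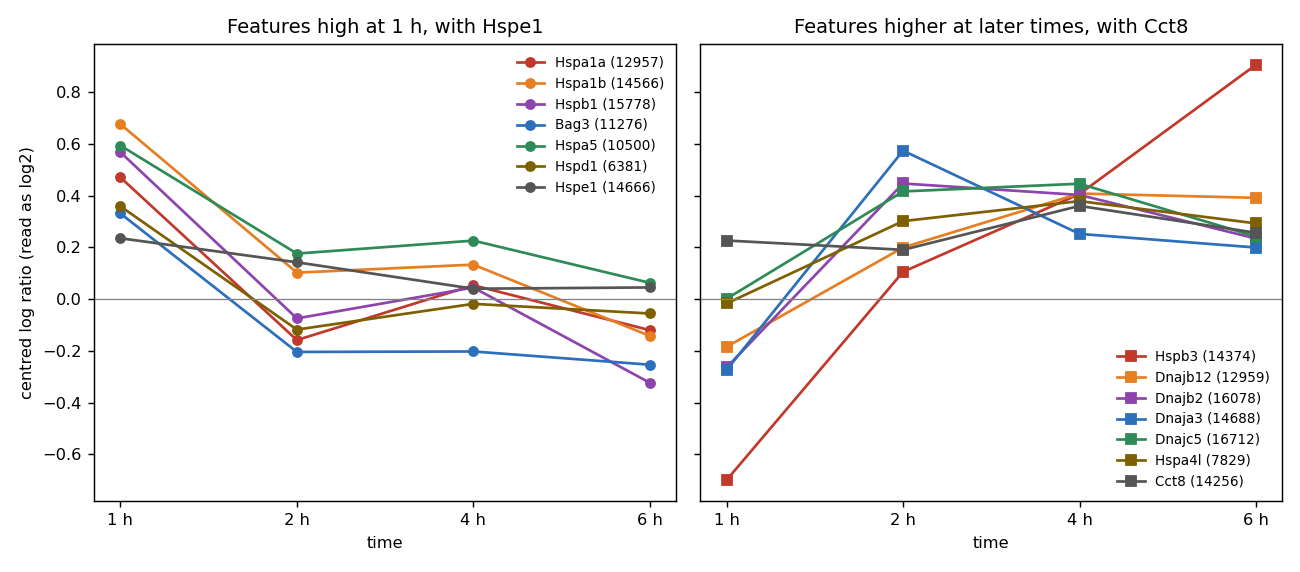
Centred log ratios (read as log2, vertical axis) of 14 member features at 1, 2, 4 and 6 h (horizontal axis, evenly spaced), with feature numbers in brackets; each line is 1 feature and each point 1 array. On the left Hspa1a, Hspa1b (14566), Hspb1, Bag3, Hspa5, Hspd1 and Hspe1 are highest at 1 h, and on the right Hspb3 runs from -0.70 at 1 h to 0.91 at 6 h while Cct8 stays between 0.19 and 0.36.

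Among the J-domain partners of Hsp70 in the cytosol, several were positive at 1 h and some were negative. Dnajb1, the heat-inducible partner of Hsp70, read 0.32, 0.25, 0.06 and 0.04 at 1, 2, 4 and 6 h. Both Dnajb4 features were positive on every array (0.24, 0.08, 0.15 and 0.14 for feature 1074, and 0.22, 0.18, 0.21 and 0.04 for feature 10226). Dnaja1 read 0.12, -0.03, 0.24 and 0.07. The 2 Dnajb6 features were positive at each time with a value, between 0.06 and 0.44. At 1 h the 2 Dnajc7 features read -0.18 and -0.06, and the 2 Dnaja4 features read -0.14 and 0.33. Of the Dnaja, Dnajb and Dnajc features with a value at 1 h, 4 of 6, 7 of 10 and 6 of 17 were positive. Their medians were 0.15, 0.21 and -0.06, and 50% of all features were positive at that time.

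Several J-domain genes were negative or near 0 at 1 h and positive later. Dnajb2, a neuronal J-domain protein, read -0.26, 0.45, 0.40 and 0.23. Dnajb12, anchored in the membrane of the endoplasmic reticulum, read -0.18, 0.20, 0.41 and 0.39. Dnaja3, the J-domain protein of mitochondria, read -0.27, 0.57, 0.25 and 0.20. All 3 had their single negative value at 1 h. Dnajc5, the cysteine string protein that guards SNARE proteins on synaptic vesicles, read 0.0012, 0.42, 0.45 and 0.24. Dnajc19, of the mitochondrial import motor, was also negative at 1 h (-0.48) but stayed near 0 later, between -0.06 and 0.02.

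Among J-domain partners of Hspa5 in the endoplasmic reticulum, Dnajb11 read 0.25, 0.01, 0.26 and 0.23. The 2 Dnajb9 features, of 1 accession, read -0.28 and 0.06 at 1 h, but lay within 0.07 of each other and below 0 at 2, 4 and 6 h. The 2 Dnajc3 features read 0.0076 and -0.06 at 1 h and differed at 4 h (-0.49 and 0.05). Dnajc10 read -0.13, -0.19, 0.09 and 0.03. The Dnajc3 and Hspa5 windows share the stress element printed above, and their values at 1 h were 0.0076 and -0.06 for Dnajc3 and 0.59 for Hspa5.

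The Cct chaperonin subunits, which form 1 ring, had small ratios. Cct8 was positive on all 4 arrays, at 0.23, 0.19, 0.36 and 0.26, as were Cct7 (0.11, 0.42, 0.13 and 0.12) and Cct2 (0.04, 0.24, 0.03 and 0.02). Cct5 read -0.02, 0.22, 0.14 and 0.28, and Cct3 read 0.22, 0.18, -0.03 and 0.01. Cct4 was the only subunit negative at all 3 later times, with 0.20, -0.14, -0.06 and -0.09. Cct6a read -0.09, 0.08, -0.03 and 0.05, and Cct6b, a testis form, read -0.06 at 1 h and 0.38 at 6 h. No subunit passed 0.5 on any array, and only Cct7 at 2 h exceeded the SD between features of 1 gene at its time.

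Over all 8777 features with a value on all 4 arrays, 3 fits in limma tested the 56 member features among them, two-sided and with Benjamini-Hochberg adjustment over all features. The mean over the 4 times, with the spread between times as error, placed 0 members and 0 features past an adjusted p of 0.05. At an unadjusted p under 0.05 there were 8 of 56 members, 7 positive and 1 negative, beside 14.8% of all features (6.9% positive and 7.85% negative). The mean was above 0 for 38 of 56 members, beside 47.4% of all features. The smallest p belonged to Cct8 (mean 0.26 ± 0.07, SE, adjusted p = 0.243 in limma), followed by Dnajc5 (0.28 ± 0.09, 0.288) and Dnajc28 (0.21 ± 0.07, 0.291). On all 4 arrays, 14 of 56 members were positive (11.4% of all features) and 5 negative (14.2%). A dye bias of a feature is part of this mean, since no array exchanged the dyes.

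The slope on log2 hours, in which a constant dye bias cancels, also placed 0 members and 0 features past the threshold in limma. At an unadjusted p under 0.05 there were 7 of 56 members, 2 positive and 5 negative, beside 15.5% of all features (8.85% positive and 6.61% negative). The slope was above 0 for 23 of 56 members, beside 54.5% of all features. Hspb3 had the smallest p, with a slope of 0.58 ± 0.08 per doubling of time (SE, adjusted p = 0.271). Negative slopes were led by the Hspa1b features (-1.01 ± 0.23 for feature 15862 and -0.28 ± 0.08 for 14566) and Hspb1 (-0.29 ± 0.09), with adjusted p of 0.271 to 0.281 in limma.

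The 1 h array was then set against the mean of the 2, 4 and 6 h arrays, and 4 of 56 member features passed an adjusted p of 0.05 in limma, 3 higher and 1 lower at 1 h. That share of 7.14% lay below the 11.8% of all features called in this fit (5.45% higher and 6.36% lower at 1 h). The 1 h array has no spread of its own in this fit, and it was known to stand apart when the fit was chosen. The differences of the Hspa1b features, 1 h minus later, were 2.53 ± 0.28 for feature 15862 and 0.65 ± 0.15 for feature 14566 (SE, adjusted p = 0.0189 and 0.0482 in limma). Feature 14566 did not pass in limma without centring (adjusted p = 0.0501), with values on at least 3 arrays (0.059) or with quantile normalisation (0.0971), and over all alternatives its adjusted p ran from 0.0469 to 0.165. Bag3 was higher at 1 h by 0.55 ± 0.11 (0.0369 in limma), with 0.33 at 1 h and -0.22 ± 0.03 later (SD, n = 3 arrays). Dnajb2 was lower at 1 h, by -0.63 ± 0.13 (0.0404 in limma), with -0.26 at 1 h and 0.36 ± 0.11 later (SD, n = 3 arrays).

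Just beyond the threshold stood Hspa1a (difference 0.55 ± 0.13, SE, adjusted p = 0.053 in limma), Dnajc19 (-0.46 ± 0.11, 0.053), Hspb1 (0.69 ± 0.17, 0.0539), Hspb3 (-1.17 ± 0.30, 0.0565), Dnajb12 (-0.52 ± 0.13, 0.0582), Hspd1 (0.42 ± 0.11, 0.0618) and Hspa5 (0.44 ± 0.12, 0.067). At an unadjusted p under 0.05 there were 21 of 56 members, 14 positive and 7 negative, beside 35% of all features (15.2% positive and 19.8% negative). The difference was above 0 for 28 of 56 members, beside 45.2% of all features. Of the 56 members, 23 were highest at 1 h (33.6% of all features), all 23 with a positive value there (30.2%), and 19 were lowest there (42.4%). This fit takes its spread from 3 arrays that resemble each other, and assumes that the wider 1 h array varies as they do. With the 4 arrays brought to equal spread it called 24 features and 0 members, without the 4 h array only Hspa1b feature 15862, and without the 6 h array that feature and Hspb3.

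**Figure D4:**
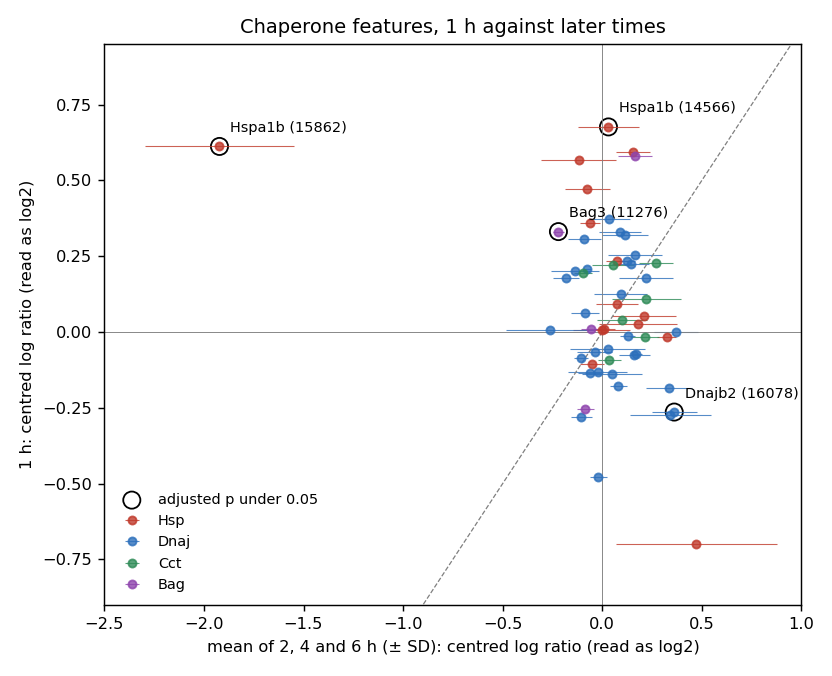
Centred log ratio at 1 h (vertical axis, read as log2) against the mean of the 2, 4 and 6 h arrays (horizontal axis, with bars of 1 SD over the 3 arrays) for the 56 chaperone features with a value on all 4 arrays, coloured by subfamily; the dashed line marks equal values and the 2 axes have different scales. Rings mark the 4 features past an adjusted p of 0.05, of which Hspa1b feature 15862 lies at 0.61 and -1.92, and Hspb3, unringed, lies lowest at -0.70.

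Without the 1 h array, the mean of the 3 later arrays passed for 6 of 56 members (10.7%), 5 positive and 1 negative. That share lay below the 12.1% of all features (6.47% positive and 5.59% negative). A dye bias of a feature is part of this mean as well, and the 3 later arrays resemble each other. Hspa4l (0.32 ± 0.06, SE), Dnajb12 (0.33 ± 0.07), Cct8 (0.27 ± 0.06), Dnajb2 (0.36 ± 0.07) and Dnajc5 (0.37 ± 0.07) were positive, with adjusted p of 0.0303 to 0.0466 in limma. Hspa1b feature 15862 was negative (-1.92 ± 0.14, 0.0035 in limma). The other Hspa1b feature, 14566, did not pass in this fit.

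Members with GAANNTTC in their window had their highest median at 1 h. Their 12 features with a value then had a median of 0.28 and 10 were positive, while the 44 features of members without it had 0.04 and 26 positive. At 2 h the medians were 0.08 with and 0.08 without, at 4 h 0.05 and 0.08, and at 6 h -0.03 and 0.06. With it, 7 of 12, 11 of 13 and 6 of 13 features were positive at 2, 4 and 6 h. Without it, 29 of 42, 25 of 38 and 27 of 39 were, so a high positive count was not particular to 1 h. Over all features with 1 symbol and a window, the medians at 1 h were -0.0025 with the element (577 features) and -0.0022 without it (7897 features). Of these, 49.4% with the element and 49.8% without it were positive. For the longer heat shock element, member medians at 1 h were 0.24 with it (3 features) and 0.06 without it. For TTCNNGAA they were 0.22 with it (8 features) and 0.06 without it. The endoplasmic reticulum element ran the other way among members at 1 h, with 0.0089 with it (4 features) and 0.12 without it. Over all features it did not, with 0.06 with it (19 features, 63.2% positive) and -0.0023 without it (8455 features). All features with the longer heat shock element had a median of 0.0056 at 1 h (32 features), and those with TTCNNGAA -0.019 (640 features). These groupings were made after the values had been seen, Hspa1a and Hspa1b share nearly all of a window, and no test was made.

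Member genes with 2 or more features allow a look at how far features of 1 gene lie apart. Of the 12 such genes, 10 had 2 or more values at 1 h, and the signs differed in 5 of them. At 2, 4 and 6 h the signs differed in 3 of 9, 5 of 11 and 3 of 11. The median range within a gene was 0.18, 0.10, 0.16 and 0.10 at 1, 2, 4 and 6 h. Dnajb4, Dnajb6 and Hsp90aa1 kept 1 sign across features, while Bag1 did not at any time. Dnaja2 read 0.18 and 0.27 at 1 h but -0.17 and 0.35 at 4 h, and the 3 Dnajc2 features, a ribosome-associated J-domain protein, read -0.08, 0.31 and -0.14 at 1 h.

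Partners of these chaperones outside the naming rule were a list of 50 genes, of which 43 had a value. Their medians were 0.16, 0.06, 0.05 and 0.01 at 1, 2, 4 and 6 h. Of their features, 36 of 52, 31 of 52, 30 of 52 and 27 of 50 were positive, beside 50% of all features at each time. In the fit of 1 h against later times, 1 of 46 features passed as higher and 1 as lower at 1 h, beside 11.8% of all features, and 0 passed in the other 2 fits. The lens crystallin Cryaa, a small heat shock protein by descent, was higher (1.03 at 1 h and 0.06, -0.05 and 0.02 later, adjusted p = 0.0189 in limma). Cdc37, which loads kinases onto Hsp90, was lower in 1 feature (-0.61, 0.15, -0.0047 and -0.02, 0.0352 in limma), and its other feature read 0.32 at 1 h and -2.26 at 4 h.

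Folding genes of the endoplasmic reticulum had a median of 0.18 at 1 h and of 0.01, 0.04 and 0.02 at 2, 4 and 6 h. At 1 h, 10 of 15 features were positive (50% of all features), 1 lay at or below -0.5 (6.37%) and 3 at or above 0.5 (9.03%). Those 3 were Manf, a secreted protein induced by stress of that compartment (0.76, -0.04, 0.30 and 0.16), 1 feature of Sdf2l1 (0.62, 0.31, -0.03 and 0.04) and 1 of Pdia4, a disulfide isomerase (0.61, 0.20, 0.10 and 0.11). Another Sdf2l1 feature read -0.97 at 1 h and -4.25 at 2 h, and another Pdia4 feature -0.29 at 1 h and -2.75 at 4 and 6 h. The remaining Pdia4 feature read 0.15, -0.12, 0.08 and 0.43, and Pdia6 read 0.18, -1.01, -0.20 and -0.35. Calr read -0.19 and 0.21 at 1 h in its 2 features with a value, and Canx read -0.43. Xbp1, a transcription factor of that stress response, read 0.42 and 0.33 at 1 h in its 2 features. Tcp1, the remaining subunit of the Cct ring, read 0.19, 0.26, 0.19 and 0.13.

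Markers of the cell types that the tissue can hold were read beside the chaperones, with 50% of all features positive at 1 h. Blood markers were positive in 4 of 4 features at 1 h (median 0.26), microglial markers in 6 of 10 (0.14), astrocyte markers in 4 of 10 (-0.08), oligodendrocyte markers in 5 of 10 (0.0097), vessel markers in 2 of 5 (-0.0059), choroid plexus markers in 2 of 4 (-0.08) and granule cell markers in 0 of 3 (-0.23). At 2, 4 and 6 h the medians were 0.29, -2.00 and 0.17 for blood, over 3, 2 and 3 features of which the lowest read -2.81, -4.09 and -2.74. Choroid plexus markers had medians of -0.55, -0.60 and -0.41, with lowest features at -2.64, -3.03 and -3.18. Microglial markers had 0.06, 0.09 and 0.24, astrocyte markers 0.04, 0.09 and 0.11, and oligodendrocyte markers 0.05, 0.13 and 0.05. Vessel markers had -0.16, -0.0034 and 0.17, and granule cell markers -0.10, 0.18 and 0.08. The blood and choroid plexus lists thus held the lowest values, at the later times. The part of cell makeup in the chaperone ratios was not tested.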

How the data were processed

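RNA of the dentate gyrus was measured on 4 two-colour arrays, 1 for each of 4 times. The authors deposited 1 log ratio per feature and array, read here as log2. Scanning, background correction and normalisation by the authors are not given in the sources used here, nor are the log base and the direction. Exact 0 was read as no value: it made up 24.9% to 37.4% of an array, and any other value recurred at most 3 times. The median of the remaining values, 0.0052 to 0.017, was subtracted from each array.

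Names came from the platform annotation (13738 features with 1 symbol, 52 with several, 2491 with none). The Entrez identifiers of all 74 member features gave the same symbol in RefSeq. Features were tested singly in limma 3.58.1 under R 4.3.3 (lmFit, eBayes), and the fits were run on simulated data. The simulated arrays were independent of each other, unlike the later arrays here, so error rates in these data were not checked. No intensities were used here, so depth and dye effects could not be examined, and the number of arrays limits the precision. The times stand in for replicates, so each p-value sets an estimate against the spread between these arrays, moderated over all features. That spread can hold changes over time as well as array noise, and is not the spread of repeated samples. Alternatives were centring, spread, quantile normalisation, the reading of 0, the number of arrays with a value, averaging by gene, array weights, omission of low features and of single arrays.

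Earlier results of these data were known when the members, lists, tests and rule for naming genes were chosen. Named were a fixed set of main chaperones, the 5 members of smallest p in each direction of each fit, the 3 highest and 3 lowest features at each time, those at or past 1, and genes with several features. Motifs, neighbouring feature numbers and the coverage of features were examined after the values had been seen. Some features that these rules name are given only by range or count.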

Additional observations from a re-analysis of the deposited data

Results flagged for a closer look

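Differences between 1 h and the later times passed the limma fit for Hspa1b feature 15862 (2.53), Hspa1b feature 14566 (0.65), Bag3 (0.55) and Dnajb2 (-0.63), each as 1 h minus the mean of 2, 4 and 6 h. Over the alternatives their adjusted p ran from 0.0041 to 0.0886, from 0.0469 to 0.165, from 0.0156 to 0.107 and from 0.0401 to 0.117. Values of 0.5 or more with opposite signs at different times stood out in Hspa1b feature 15862, whose highest and lowest times lay 2.90 apart, and in Hspb3, where they lay 1.61 apart. The difference between those single times was not tested. The values of the features numbered next to Hspa1b feature 15862 were also low at 2, 4 and 6 h, and the second Hspa1b feature did not show that drop.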

How the results depend on the processing

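Medians of all members and of the 4 subfamilies at each time stayed smaller than the SD between features of 1 gene under every alternative run. The SD was computed on the main centred values alone and not again for each alternative. That SD describes single features and is not the error of a median. The Hsp median ran from 0.07 to 0.24 at 1 h and from -0.06 to 0.05 at 6 h, and the Bag median from 0.15 to 0.34 at 1 h. At 6 h, 10 of 19 Hsp features were positive, against 6 of the 15 with values on all 4 arrays. Quantile normalisation, run on those 15 alone, also gave 6. The 1 positive Bag feature at 2 h became 2 without centring. The mean over the 4 times called 0 features and 0 members, but 9 features with quantile normalisation, 19 with values on at least 3 arrays, and 2406 features with 15 members under array weights. Leaving out 1 array gave 0 to 1059 features and 0 to 6 members for the mean, with the highest counts without 1 h, and 0 to 1 features for the slope, the 1 without 4 h. The 1 h difference called 1036 features and 4 members, against 24 and 0 with equal spread, 351 and 1 with quantile normalisation, and 1870 and 7 with 0 read as a value, where repeated zeros shrink the spread. Leaving out 1 later array gave 162 to 1570 features and 1 to 7 members, the highest without 2 h and the lowest without 4 h. The mean of Bag1 feature 3222 (-0.13) turned to 0.0709 when its 2 features were averaged. The cause of the changes in these counts was not tested, and neither was the part of repeated zeros. No paired analysis was possible because each time has 1 array. Signal over background was not examined, since no intensities were used here.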
